A study of Rattus norvegicus with 24 samples.

Results

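The organic ion and ABC drug transporters of rat liver were taken as every array probe whose gene name begins with Slco, Slc22a, Abcb, Abcc or Abcg, leaving out the phospholipid, bile salt and sterol pumps Abcb4, Abcb11, Abcg5 and Abcg8. The rule gave 60 genes with 77 probes, out of 26278 gene names on the array, and 43 of the 60 were measured well enough to be tested, out of 18641 tested genes. Livers came from 24 male Wistar rats, 6 to a diet, that began purified AIN76A-based diets at an age of 6 months and were fed them for 12 weeks, and each liver was read on a 1-colour Agilent array (Cy3). The first diet, written LC30, held under 0.3 mg/kg copper and 30% sucrose. The second, AC30, held 125 mg/kg copper, called adequate or high in the labels, and 30% sucrose. The third, LC10, held under 0.3 mg/kg copper and 10% sucrose, and the control diet held 125 mg/kg copper and 10% sucrose. Starch and dextrin evened out the carbohydrate, and all rats had eaten pelleted chow before. The study sets these diets in the setting of fatty liver disease without alcohol, and its design asks what low copper, more sucrose and both together do to the liver.

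Hepatocytes clear drugs, hormones, bile acids and bilirubin from blood in steps that each use a transporter. Carriers of the organic anion transporting polypeptide family (OATP, genes Slco) and of the organic cation and anion carrier family (Slc22a) sit mainly in the plasma membrane and let charged organic molecules in from blood. The ABC pumps use ATP to move drugs and their conjugates out, into bile or back to blood, and several ABCB members work inside mitochondria or lysosomes instead. In rodent liver many of these genes are controlled by HNF factors and by the xenobiotic sensors PXR, CAR and AHR.

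The probes behind 3 members on which the results turn are shown first, as the array maker designed them, because each level below is the brightness of such a 60-base sequence. Positions refer to the rat build rn4, and chromosome, start and end are those of the scanner files. The first is that of Slc22a7 at chr9:9939078-9939137 on the plus strand, then Slco1a5 at chr4:179793557-179797315 on the minus strand, where the 60 bases lie in a span of 3759 bases, and Slco6d1 at chr9:96526596-96526655 on the minus strand.
Slc22a7: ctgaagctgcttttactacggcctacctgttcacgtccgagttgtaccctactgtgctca
Slco1a5: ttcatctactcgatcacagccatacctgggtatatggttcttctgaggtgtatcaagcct
Slco6d1: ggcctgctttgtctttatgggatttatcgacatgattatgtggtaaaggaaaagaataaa

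The 250 bases before the gene start are shown for 3 carriers that were lower on AC30 (values below). They come from RefSeq on the build GRCr8, which is not the build of the probe positions. Slc22a7 has its window at chr9:22045248-22045497 on the plus strand, Slc22a8 at chr1:214927034-214927283 on the plus strand and Slco1a5 at chr4:176963813-176964062 on the minus strand. Capitals mark the matches to 8 motifs searched on both strands.
Slc22a7: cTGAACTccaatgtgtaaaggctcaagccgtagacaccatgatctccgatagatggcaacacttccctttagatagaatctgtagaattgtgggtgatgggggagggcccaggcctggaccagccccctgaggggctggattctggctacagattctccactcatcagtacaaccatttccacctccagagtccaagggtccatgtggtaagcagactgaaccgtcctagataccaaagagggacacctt
Slc22a8: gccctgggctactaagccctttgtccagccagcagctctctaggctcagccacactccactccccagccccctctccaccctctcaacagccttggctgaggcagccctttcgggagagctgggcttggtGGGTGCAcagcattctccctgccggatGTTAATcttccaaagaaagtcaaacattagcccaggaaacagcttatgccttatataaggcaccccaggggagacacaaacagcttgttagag
Slco1a5: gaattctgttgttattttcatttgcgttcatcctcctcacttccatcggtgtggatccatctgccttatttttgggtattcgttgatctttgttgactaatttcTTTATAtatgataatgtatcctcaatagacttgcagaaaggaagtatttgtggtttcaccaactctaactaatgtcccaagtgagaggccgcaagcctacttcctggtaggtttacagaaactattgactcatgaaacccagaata

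In the Slc22a8 window the metal response element TGCACNC or TGCGCNC matched at position -120 from the start, on the minus strand, a motif found in 20.6% of all 33469 windows of this length. The HNF1 site letters GTTAAT matched at position -93 of Slc22a8, and 6.45% of all windows hold them. The nuclear receptor letters TGAACT at the far end of the Slc22a7 window occur in 12.2% of all windows, and the TATA box letters TATAAA, found on the minus strand of the Slco1a5 window, in 12.9%. The other letters searched were the nuclear receptor site AGGTCA (14.1% of all windows), the AHR core GCGTG (25.9%), the NRF2 element TGACNNNGC (10.1%) and the SP1 box GGGCGG (30.5%), none of which matched in these 3 windows. No matches overlap one another in these windows, and a match is a string of letters and not a tested site. Of the 34 tested members with a window in the table, 10 hold the metal response element and 20 the SP1 box.

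The arrays had between 59.9% and 73.4% of probes well above background, and their 75th percentile of processed signal lay between 433 and 1284. Levels are log2 of the processed signal less the array's 75th percentile, so a level of 0 is as bright as that percentile, and levels of different probes are not set against each other. The brightest kept probe stands for a gene, and 11 members had more than 1 kept probe. In 47 of the 66 pairs of such a member and comparison all kept probes gave 1 sign. The 8 hepatocyte markers were well above background on all arrays and none of them passed the test against the control diet on any of the 3 diets. The rats were read on 3 array slides that are tied to diet: slide 1 held all 6 rats of LC30 and 2 of AC30, slide 2 the other 4 of AC30 and 4 of LC10, and slide 3 the last 2 of LC10 and all 6 control rats. LC30 and AC30 therefore share no slide with the control diet. Rat 2 of LC10 deviated most of the 24 from the mean of its diet over the members (median absolute deviation of 0.279), and rat 5 of AC30 most among the AC30 rats (0.239), though LC10 rats 1, 4 and 5 and control rat 6 deviated by 0.252 to 0.270. Some results are also given without rat 2 of LC10 and rat 5 of AC30, a pair chosen after seeing the data.

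Few of the transporters passed the test. On AC30 the organic anion carriers Slc22a7 and Slc22a8 (2 of the 5 tested) and the OATP carrier Slco1a5 (1 of the 6 liver OATP carriers) were lower than on the control diet, the pump Abcc1 and the dim carrier Slco6d1 were higher, and none of these calls held with slide as a fixed block. With that block 0 of all tested genes passed on AC30. A member passed when limma's adjusted p, taken over all 18641 genes, was under 0.05. On AC30 4 of the 43 members were lower and 2 higher than on the control diet, with Slco6d1 among the higher ones here and on LC10, although its probe was well above background in 0 of 6 control rats and was kept only through the other diets. Among all tested genes 2.48% were lower and 18.4% higher in that comparison, beside 9.30% of the members lower and 4.65% higher. The median member difference was -0.14, against 0.07 for all genes. In whole liver, fewer cells of a type and less RNA per cell cannot be told apart. On LC10 2 members were higher and 0 lower, beside 18% of all genes higher and 0.595% lower. On LC30 0 members passed in limma (2 had an unadjusted p under 0.05), beside 1.72% of all genes higher and 0.0376% lower. Low copper minus adequate copper at 30% sucrose, and 30% minus 10% sucrose at low copper, had 0 members passing (6 and 2 with an unadjusted p under 0.05), and 0% of all genes passed in either. The copper by sucrose interaction, which is the copper difference at 30% sucrose less the copper difference at 10% sucrose, was positive in 4 members and negative in 2, beside 1.94% of all genes positive and 18.9% negative.

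These counts depend on the scaling and on the slide. With quantile normalization 6 members were lower and 1 higher on AC30, and the rises and falls among all genes there were 1581 and 1036, against 3426 and 462 with the scaling to the 75th percentile. On AC30 Abcc1 did not pass with normexp background correction, with quantile normalization or in the authors' table. Slc22a7 passed on AC30 with normexp (-0.37) and in neither of the other 2 settings. Slco6d1 differed on AC30 by 1.01 with quantile normalization, 0.82 in the authors' table and 0.45 with normexp, passing only in the first of these. The interactions of Slc22a8, Slco6d1 and Abcc1 passed with normexp and in neither of the other 2 settings. Slco1a5 passed on AC30 and for the interaction in those 2 settings and not with normexp. On LC10 the calls of Slco6d1 and Slc22a13 were lost in all 3 settings. There quantile normalization gave 2 members lower, Slco1a5 among them, and 0 higher, and 1561 rises and 549 falls over all genes, against 3358 and 111. For the interaction quantile normalization left 3 members, all positive, with 1031 positive and 1657 negative genes, against 361 and 3523, and it moved the median of all genes by more than 0.1, to 0.04 from -0.10. The authors' own table, put back on a log2 scale, gave 6 members lower and 0 higher on AC30, with 1546 rises and 908 falls, and 2 members lower and 0 higher on LC10, with 1546 rises and 392 falls. For the interaction it left 3 positive members with 763 positive and 1630 negative genes. With slide as a fixed block no member passed in any of the 6 comparisons in limma, while 0 to 3 members in each had an unadjusted p under 0.05 in that fit. Of all 18641 tested genes, 0 passed there against the control diet on LC30, 0 on AC30 and 0 on LC10. In the same fit 20 genes passed for copper at 30% sucrose, 6 for sucrose at low copper and 10 for the interaction. The loss of calls with the block is therefore not particular to the transporters. A difference between a diet and the control diet and a difference between slides cannot be told apart where the slides are not shared.

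**Figure D1:**
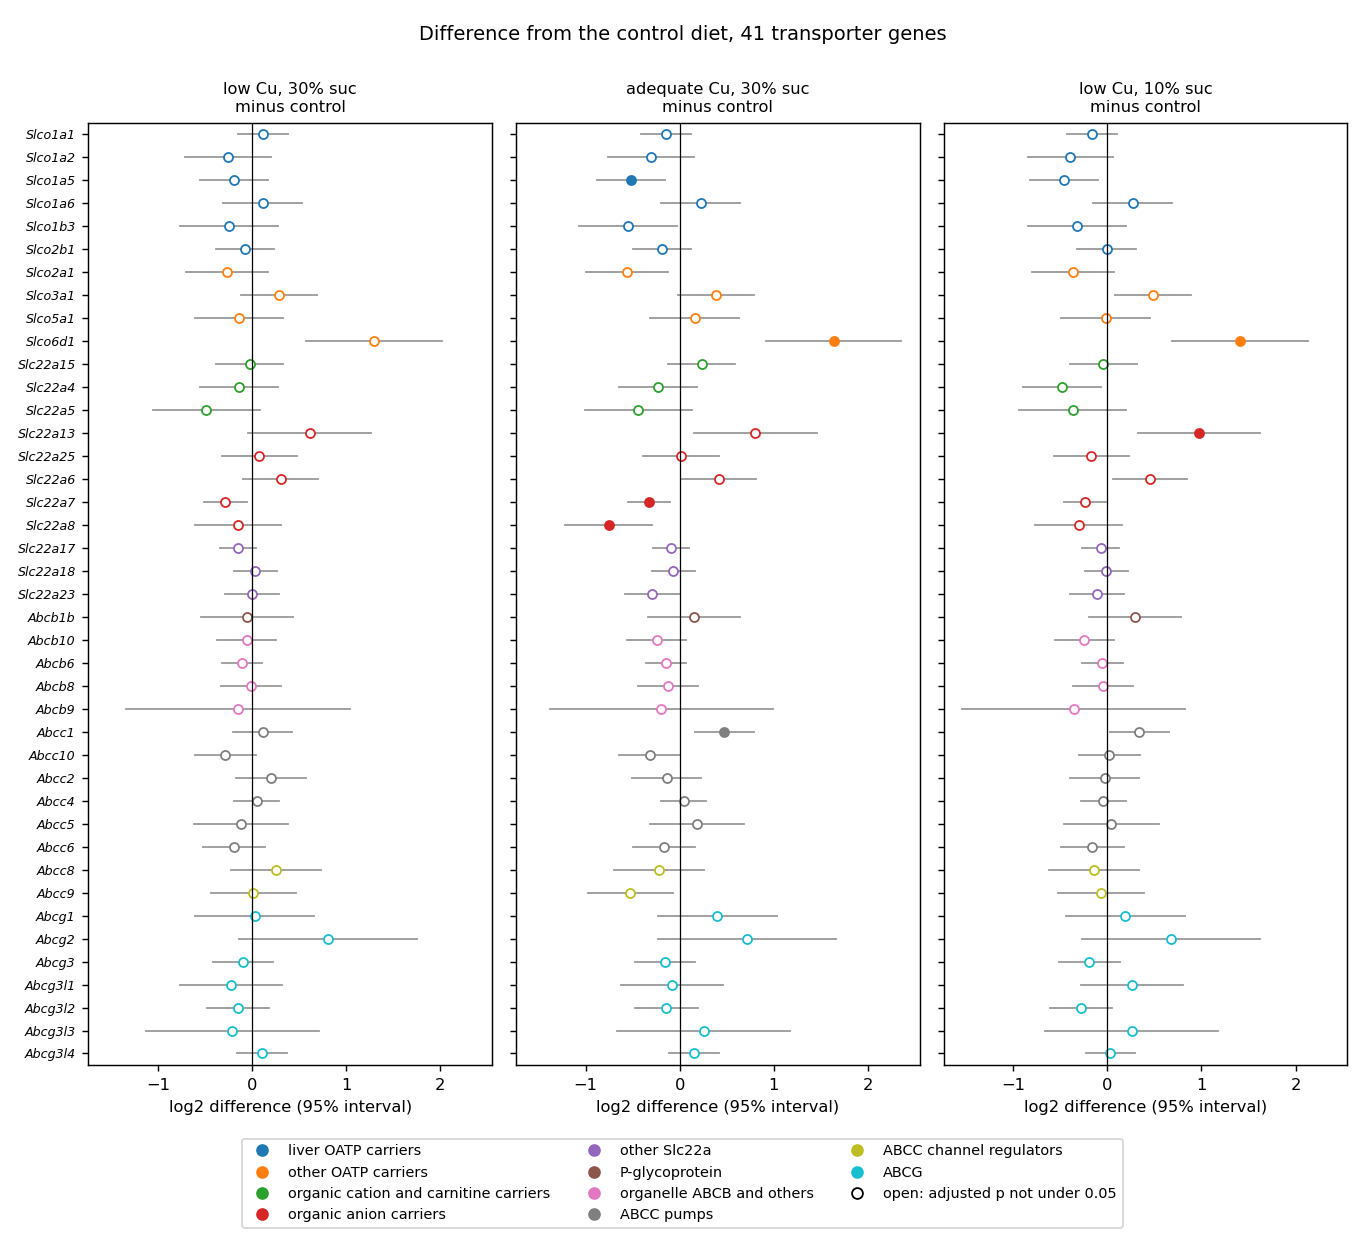
Log2 difference from the control diet (horizontal axis) of 41 of the tested members (vertical axis, coloured by role) for LC30, AC30 and LC10, with 95% intervals from limma. Filled points passed at an adjusted p of 0.05, which are 0 of the points in the left panel, 5 in the middle and 2 in the right.

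Among the organic cation and carnitine carriers, Slc22a5, Slc22a4 and Slc22a15 did not pass in any comparison by their brightest probes. Slc22a5 (OCTN2, the carnitine uptake carrier) had levels from -4.36 to -2.75 on LC30, -4.48 to -2.83 on AC30, -4.01 to -2.82 on LC10 and -3.36 to -2.74 on the control diet. Its difference from the control diet was -0.49 on LC30, -0.44 on AC30 and -0.37 on LC10, and the diets overlapped. Slc22a4 (OCTN1, an ergothioneine carrier) differed by -0.14 on LC30, -0.23 on AC30 and -0.48 on LC10, and Slc22a15 by -0.03 on LC30, 0.23 on AC30 and -0.05 on LC10. The other kept Slc22a15 probe gave 0.51 on LC10 (adjusted p = 0.0496 in limma over all kept probes) and -0.76 for the interaction (adjusted p = 0.0353), so the 2 probes disagree in sign on LC10. Slc22a2 and Slc22a3 had no probe above background on enough arrays.

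Among the organic anion carriers, Slc22a8 and Slc22a7 were lower on AC30, and Slc22a13 was higher on LC10. Slc22a8 (OAT3, an anion exchanger best known from kidney) had lowest, median and highest levels of 4.52, 5.13 and 5.66 on LC30, 3.87, 4.57 and 5.10 on AC30, 4.22, 4.94 and 5.32 on LC10, and 4.96, 5.23 and 5.44 on the control diet. On AC30 1 rat reached the control range and the other 5 lay below it. The difference was -0.76 (SE 0.22, adjusted p = 0.0182), or 1.69-fold lower, while LC30 differed by -0.15 and LC10 by -0.30. The interaction was 0.91 (SE 0.32, adjusted p = 0.0423). The fixed slide block gave an AC30 difference of -0.67 and an interaction of 0.23, and neither passed. Without rat 5 of AC30 the AC30 difference was -0.64 (adjusted p = 0.0555), and the interaction lost its call in 14 of the 24 fits that each leave out 1 rat. On AC30 the 2 rats of slide 1 averaged 4.93 and the 4 rats of slide 2 averaged 4.23. Within slide 1 the copper difference was 0.14, against 0.61 over all rats at 30% sucrose.

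Slc22a7 (OAT2, a hepatic carrier of organic anions such as prostaglandins) differed least among the members that passed. Its lowest, median and highest levels were 3.36, 3.53 and 3.72 on LC30, 3.30, 3.51 and 3.64 on AC30, 3.36, 3.63 and 3.76 on LC10, and 3.57, 3.80 and 4.21 on the control diet. All 3 diets had a lower median than the control diet, and all 3 overlapped it. The difference passed on AC30 alone (-0.33, SE 0.11, adjusted p = 0.0365), with -0.29 (adjusted p = 0.163) on LC30 and -0.24 (adjusted p = 0.152) on LC10. Neither LC30 minus AC30 (0.04) nor LC30 minus LC10 (-0.05) passed, AC30 was not tested against LC10, and the interaction was 0.28 (adjusted p = 0.213). Under the fixed slide block the difference was -0.27 on LC30, -0.26 on AC30 and -0.17 on LC10, and none passed. The AC30 call was lost in 7 of the 24 fits that each leave out 1 rat, with differences from -0.38 to -0.25 over the 24.

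Slc22a13 (an anion carrier that exchanges urate and nicotinate in human kidney) was dim, and its probe was well above background in 3 of the 6 control rats and in all 6 rats of each other diet. Its lowest, median and highest levels were -4.73, -4.13 and -3.86 on LC30, -4.55, -4.07 and -3.45 on AC30, -4.89, -3.71 and -3.07 on LC10, and -5.70, -4.88 and -3.82 on the control diet. The difference on LC10 was 0.97 (SE 0.32, adjusted p = 0.0323) on the fitted log2 scale, and no fold is given because 3 of the 6 control rats were not well above background. It was 0.43 with normexp, 0.55 with quantile normalization and 0.56 in the authors' table, and passed in none of them. The 4 rats of that diet on slide 2 averaged -3.39 and the 2 on slide 3 averaged -4.75, and within slide 3 the copper difference was 0.06. The difference was 0.61 on LC30 (adjusted p = 0.336) and 0.80 on AC30 (adjusted p = 0.0744), and with slide as a fixed block -1.39 on LC30 and -0.77 on AC30, none past the threshold. The LC10 call was lost in 7 of the 24 fits that each leave out 1 rat, with differences from 0.80 to 1.18. Slc22a6 (OAT1, the main renal anion exchanger) differed by 0.30 on LC30, 0.42 on AC30 and 0.46 on LC10 and Slc22a25 by 0.08 on LC30, 0.01 on AC30 and -0.17 on LC10, and neither passed. Slc22a9, Slc22a12, Slc22a20 and Slc22a22 were not above background on enough arrays.

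**Figure D2:**
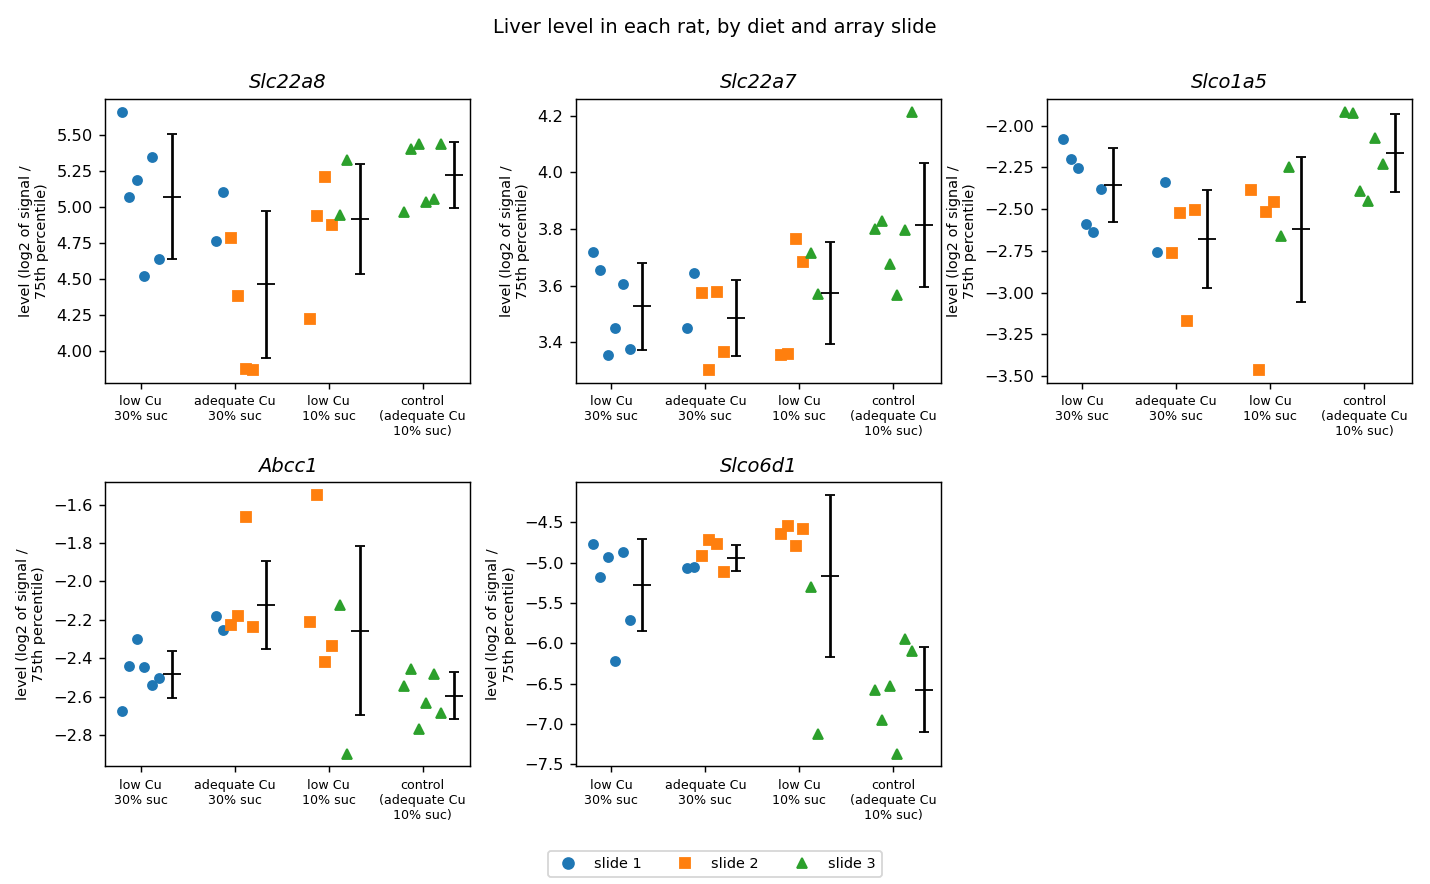
Level in each rat (vertical axis, log2 of signal over the array's 75th percentile) of Slc22a8, Slc22a7, Slco1a5, Abcc1 and Slco6d1 by diet, with the mean and SD of 6 rats as bars and the slide as symbol and colour. On AC30 the rats of slide 2 reach the lowest levels of Slc22a8, and for Slco6d1 the 4 slide 2 rats of LC10 all lie above its 2 slide 3 rats.

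Of the 3 other Slc22a members tested none passed. Slc22a18 differed from the control diet by 0.03 on LC30, -0.07 on AC30 and -0.01 on LC10, with 95% intervals inside -0.30 to 0.26. Slc22a23 differed by 0.00 on LC30, -0.29 on AC30 and -0.11 on LC10 and Slc22a17, a carrier that binds the iron-trapping protein lipocalin 2, by -0.15 on LC30, -0.09 on AC30 and -0.07 on LC10. Slc22a14 was not above background on enough arrays.

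Of the 6 liver OATP carriers 1 passed. Slco1a5 (a rodent bile acid and thyroid hormone carrier better known from gut and brain) was lower on AC30. Its lowest, median and highest levels were -2.64, -2.32 and -2.08 on LC30, -3.17, -2.64 and -2.34 on AC30, -3.46, -2.49 and -2.25 on LC10, and -2.45, -2.15 and -1.92 on the control diet. The groups overlapped, and rat 2 of LC10 was the lowest of the 24. The difference on AC30 was -0.51 (SE 0.17, adjusted p = 0.0394), or 1.43-fold lower, and the interaction 0.78 (SE 0.25, adjusted p = 0.0276). LC30 differed by -0.19 and LC10 by -0.46 (adjusted p = 0.0735). Under the fixed slide block the difference was -0.33 and the interaction 0.48, neither past the threshold, and without both deviating rats the difference passed at -0.41 (adjusted p = 0.0317) and the interaction of 0.51 did not (adjusted p = 0.0635). The AC30 call was lost in 7 of the 24 fits that each leave out 1 rat, and the interaction without rat 5 of AC30 (0.68, adjusted p = 0.0540). With normexp, and with slide as a random block, Slco1a5 passed neither on AC30 nor for the interaction. Quantile normalization and the authors' table kept both calls and also called Slco1a5 lower on LC10, by 0.67 and 0.64 on the log2 scale.

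The OATP carriers best known from the sinusoidal membrane did not pass in any comparison. Slco1a1 (Oatp1, a carrier of steroid conjugates) ranged from 2.27 to 2.63 on LC30, 1.98 to 2.49 on AC30, 1.66 to 2.47 on LC10 and 2.20 to 2.49 on the control diet. Its difference from the control diet was 0.11 on LC30, -0.15 on AC30 and -0.17 on LC10, and its interaction of 0.43 had an adjusted p of 0.0977. Slco1a4, the digoxin carrier Oatp2 that the array calls Slco1a2, differed by -0.25 on LC30, -0.30 on AC30 and -0.39 on LC10. Slco1b2, the rodent counterpart of human OATP1B carriers that the array calls Slco1b3, differed by -0.24 on LC30, -0.55 (95% interval -1.07 to -0.03, adjusted p = 0.127) on AC30 and -0.32 on LC10. Slco2b1 differed by -0.07 on LC30, -0.19 on AC30 and -0.01 on LC10 and Slco1a6 by 0.11 on LC30, 0.22 on AC30 and 0.27 on LC10. With Slco1a5 counted, 5 of the 6 liver OATP carriers had a value below 0 on AC30, beside 41.6% of all genes, and only Slco1a5 passed. The median of the 6 was -0.25, against 0.07 for all genes.

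Of the 4 other OATP carriers tested, Slco6d1 (of the Slco6 branch known from rodent testis) passed. Its probe was well above background in 3 of 6 rats on LC30, 4 of 6 on AC30 and 4 of 6 on LC10, and in 0 of 6 control rats. Lowest, median and highest levels were -6.22, -5.05 and -4.77 on LC30, -5.11, -4.99 and -4.72 on AC30, -7.13, -4.72 and -4.54 on LC10, and -7.37, -6.55 and -5.95 on the control diet. All rats on AC30 lay above all control rats. The probe was kept only through the 3 other diets and is not among the genes tested when all arrays must be above background, so its p-values describe the fit and are no support for a difference. Each control rat below its array's lowest signal among probes well above background was raised to that signal. Against the control mean so raised, the mean was 2.69-fold higher on AC30, 2.29-fold on LC10 and 2.12-fold on LC30. Before raising, the means were -4.94 on AC30, -5.17 on LC10 and -6.58 on the control diet. These folds are no strict lower bounds, because rats of the 3 diets that were not above background kept their own values. The adjusted p in limma was 0.00268 on AC30, 0.00606 on LC10 and 0.0524 on LC30.

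The slide moved with the Slco6d1 result. On LC10 the 4 rats of slide 2 averaged -4.64 and the 2 of slide 3 averaged -6.22, while the 6 control rats, all on slide 3, averaged -6.58. Those 2 were rat 5 at -5.31, above every control rat, and rat 6 at -7.13, so the copper difference within slide 3 was 0.36 with both and 1.27 without rat 6. The fixed slide block gave differences from the control diet of -0.10 on LC30, 0.12 on AC30 and 0.36 on LC10, and none passed. An alternative chosen after seeing the data left out rat 6, so that rat 5 was the only LC10 rat on slide 3. The same fit then gave 0.81 on LC30, 1.03 on AC30 and 1.27 on LC10. These values rest on rat 5, and no test is read from them. The fitted interaction of -1.75 (adjusted p = 0.0143) uses the control rats below background and is no measured size. It was -0.76 with normexp, -0.58 with the block and -1.49 with the block and without rat 6. The share of probes well above background lay between 61.4% and 73.4% on slide 1, 66.4% and 71.0% on slide 2 and 59.9% and 67.2% on slide 3, and its part in the Slco6d1 values was not tested. Slco2a1, the prostaglandin uptake carrier, differed by -0.27 on LC30, -0.56 (adjusted p = 0.0614) on AC30 and -0.36 on LC10, Slco3a1 by 0.29 on LC30, 0.38 on AC30 and 0.48 on LC10 and Slco5a1 by -0.14 on LC30, 0.16 on AC30 and -0.02 on LC10, and none passed. Slco1c1, Slco4a1, Slco4c1, Slco6b1 and Slco6c1 were not above background on enough arrays.

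Among the ABCC pumps, Abcc1 was higher on AC30 and the canalicular and sinusoidal drug pumps did not pass. Abcc1 (MRP1, which exports glutathione conjugates and is low in resting hepatocytes) had lowest, median and highest levels of -2.68, -2.48 and -2.30 on LC30, -2.25, -2.20 and -1.66 on AC30, -2.90, -2.27 and -1.55 on LC10, and -2.77, -2.59 and -2.46 on the control diet. All rats on AC30 lay above all control rats and above all rats on LC30. The difference from the control diet was 0.47 (SE 0.15, adjusted p = 0.0297), or 1.39-fold higher. It was 0.11 on LC30 and 0.34 (adjusted p = 0.139) on LC10, and the interaction was -0.70 (SE 0.22, adjusted p = 0.0230). With slide as a fixed block the difference was 0.14 and the interaction -0.36, neither past the threshold. Without rat 5 of AC30 the difference was 0.38 (adjusted p = 0.0883), and leaving out control rat 3, 4 or 6 also ended the AC30 call. The AC30 call was lost with normexp, with quantile normalization and in the authors' table, and of these settings the interaction passed with normexp alone. The other kept Abcc1 probe gave 0.30 on AC30 (adjusted p = 0.144) and -0.50 for the interaction (adjusted p = 0.0773).

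Abcc2 (MRP2, the canalicular pump for bilirubin and drug conjugates) had levels of 3.31 ± 0.22 on LC30, 2.97 ± 0.51 on AC30, 3.08 ± 0.25 on LC10 and 3.11 ± 0.14 on the control diet (mean and SD, n = 6 each). Its difference from the control diet was 0.20 on LC30 (95% interval -0.17 to 0.57), -0.14 on AC30 (-0.51 to 0.23) and -0.03 on LC10 (-0.40 to 0.34). Abcc4 (MRP4, a basolateral pump) differed by 0.05 on LC30, 0.04 on AC30 and -0.04 on LC10, with intervals inside -0.28 to 0.29 for this probe. The other kept Abcc4 probe gave 0.20 on LC30, 0.23 on AC30 and 0.16 on LC10, passed in none and differed in sign on LC10. Abcc6, whose loss causes tissue calcification, differed by -0.19 on LC30, -0.17 on AC30 and -0.16 on LC10 and Abcc5 by -0.12 on LC30, 0.19 on AC30 and 0.04 on LC10. The other kept Abcc5 probe gave 0.47 on LC30, 0.50 on AC30 (adjusted p = 0.0302 over all kept probes) and 0.45 on LC10, so it passed on AC30 and differed in sign on LC30. Abcc10 differed by -0.29 on LC30, -0.32 on AC30 and 0.02 on LC10, and it was called lower on AC30 with quantile normalization (-0.56) and in the authors' table (-0.49). Abcc3 (MRP3, the basolateral pump that other work finds raised in cholestasis) was above background on 2 of 24 arrays and Abcc12 on too few to test. The sulfonylurea receptors Abcc8 and Abcc9, which regulate potassium channels and pump nothing, did not pass. Abcc9 differed by 0.01 on LC30, -0.53 (adjusted p = 0.0944) on AC30 and -0.07 on LC10, and by -1.13 on AC30 with slide as a fixed block, still short of the threshold. Abcc9 was called lower on AC30 with quantile normalization (-0.67), in the authors' table (-0.66) and without both deviating rats (-0.65).

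The drug pump P-glycoprotein is encoded in rodents by Abcb1a and Abcb1b. Abcb1b had levels of 1.15 ± 0.54 on LC30, 1.35 ± 0.55 on AC30, 1.49 ± 0.23 on LC10 and 1.20 ± 0.29 on the control diet (mean and SD, n = 6 each). Its difference from the control diet was -0.05 on LC30 (95% interval -0.54 to 0.44), 0.15 on AC30 (-0.34 to 0.64) and 0.29 on LC10 (-0.20 to 0.78). The SD between rats on LC30 and on AC30 was larger than any of these differences. The other kept Abcb1b probe gave 0.57 on LC30, 0.27 on AC30 and 0.63 on LC10 and passed in none, with a sign on LC30 opposite to that of the brightest probe. Abcb1a was well above background on 0 of 24 arrays.

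The mitochondrial members Abcb6, Abcb8 and Abcb10 differed from the control diet by between -0.25 and -0.01, Abcb9 (a lysosomal peptide transporter) by between -0.36 and -0.15, and none passed. By its brightest kept probe each of these 4 had a value below 0 on each of the 3 diets. The other kept Abcb6 probe gave -0.002 on LC30, -0.19 on AC30 and 0.04 on LC10, so it differed in sign on LC10, and passed in none. The Abcb9 probe was well above background in 5 of 6 rats on AC30 and 4 of 6 on LC10.

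**Figure D3:**
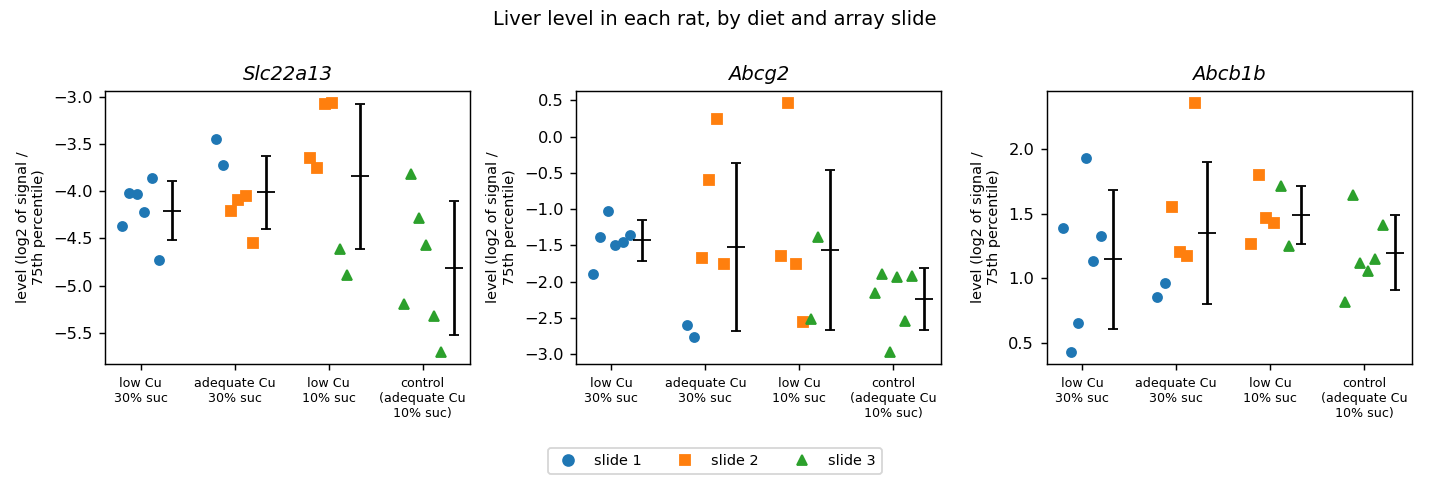
Level in each rat (vertical axis, log2 of signal over the array's 75th percentile) of Slc22a13, Abcg2 and Abcb1b by diet, with the mean and SD of 6 rats as bars and the slide as symbol and colour. Abcg2 is highest in rat 2 of LC10 (0.46) and rat 5 of AC30 (0.24), both on slide 2.

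No ABCG member passed in any comparison. Abcg2 (BCRP, which exports drugs, urate and porphyrins) had lowest, median and highest levels of -1.89, -1.41 and -1.02 on LC30, -2.76, -1.72 and 0.24 on AC30, -2.55, -1.70 and 0.46 on LC10, and -2.97, -2.05 and -1.90 on the control diet. All 6 rats on LC30 lay above all control rats, on slides that are not shared. The difference there was 0.81 (SE 0.46, adjusted p = 0.392) and it passed when those 12 rats alone were fitted (adjusted p = 0.0342). On AC30 the difference was 0.71 and on LC10 0.67, with an SD between rats of 1.16 on AC30 and 1.10 on LC10. Without rat 2 of LC10 and rat 5 of AC30 the difference was 0.36 on AC30 and 0.27 on LC10. Within slide 1 Abcg2 was 1.25 higher on LC30 (mean -1.43) than on AC30 (mean -2.68, 2 rats). Abcg1 (a macrophage and liver cholesterol exporter) differed by 0.03 on LC30, 0.40 on AC30 and 0.19 on LC10, and the rodent gene Abcg3 by -0.09 on LC30, -0.16 on AC30 and -0.19 on LC10. The other kept Abcg3 probe gave 0.26 on LC30, 0.25 on AC30 and -0.02 on LC10, and passed in none. The 4 Abcg3-like genes (Abcg3l1 to Abcg3l4) are near copies whose probes may share transcripts, and their differences lay between -0.28 and 0.26. Abcg4 and Abcb5 were not above background on enough arrays.

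Copper could be compared on 1 slide at each sucrose level, with 6 against 2 rats on slide 1 and 2 against 6 on slide 3. Low copper gave the same sign on both slides in 13 of the 43 members, 8 lower and 5 higher. The share over all genes was not counted, so this is not read as particular to the transporters. The median copper difference of all genes was -0.085 on slide 1 and 0.040 on slide 3. Slc22a8 and Slco1a5 were higher on low copper on slide 1 and lower on slide 3, and Abcc1 and Slco6d1 were lower on slide 1 and higher on slide 3. Those are the signs of the interaction of each of these 4. The 4 were named because their interaction passed in these same rats, so the matching signs are no separate support. With slide as a fixed block the interaction is the slide 1 difference less the slide 3 difference. It was smaller in size than without the block for each of the 4 and passed for none.

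**Figure D4:**
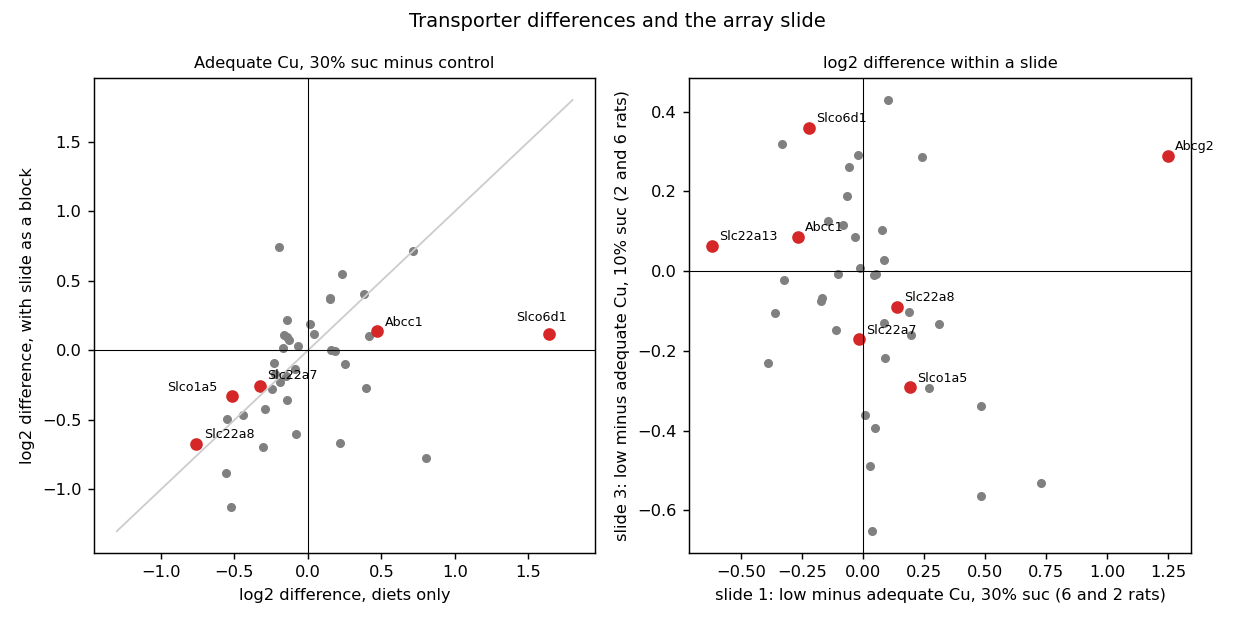
Left, log2 difference of AC30 from the control diet without (horizontal axis) and with (vertical axis) slide as a fixed block, each point one of 41 members, red where it passed without the block, with a grey line of equality. Right, log2 copper difference, low minus adequate, within slide 1 at 30% sucrose (horizontal axis) and within slide 3 at 10% sucrose (vertical axis), where Slco6d1 moves to 0.12 with the block in the left panel and Abcg2 stands at 1.25 on slide 1 in the right panel.

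Some markers of other cells were higher on the same diets. Of 7 measured neutrophil markers 6 were higher on AC30 and 3 on LC10, and 1 on LC30, beside 18.4%, 18% and 1.72% of all genes. Their median difference on AC30 was 1.54, and 0.50 with slide as a fixed block. Their summed level lay between 0.07 and 0.95 on LC30, 0.998 and 4.42 on AC30, 0.48 and 2.44 on LC10, and -0.25 and 0.67 on the control diet. Of 7 T, B and NK cell markers 3 were higher on AC30 and 3 on LC10, and the median on AC30 was 0.58 without and -0.25 with the block. Of 7 Kupffer cell and macrophage markers 1 was higher on AC30 and 1 on LC10, a share near that of all genes, and the median on AC30 was 0.45 without and -0.37 with the block. On AC30 2 of 7 stellate cell, 1 of 6 endothelial and 2 of 6 red blood cell markers were higher, on LC10 1 stellate and 1 endothelial marker, and on LC30 none of these. The summed level of the 8 hepatocyte markers lay between 10.21 and 10.99 on LC30, 10.60 and 11.45 on AC30, 10.59 and 11.02 on LC10, and 10.57 and 11.24 on the control diet, ranges that overlap. The part of these cells in the transporter values was not tested. Among the kidney markers, Slc34a1 was well above background on 0 arrays and Slc5a2 on 5. Umod, Aqp2 and Lrp2 (by its best probe) were well above it on all 24 arrays, control rats included. Of these, Umod and Aqp2 passed as higher on AC30 and on LC10. On AC30 Umod differed by 1.97 and Aqp2 by 1.10, and with slide as a fixed block Umod by -0.05 and Aqp2 by -0.13.

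Of 20 measured xenobiotic sensors and liver regulators, 1 was lower on AC30 and 0 were higher, and 0 passed on the other 2 diets. Among all genes 2.48% were lower and 18.4% higher on AC30, 0.595% and 18% on LC10, and 0.0376% and 1.72% on LC30. The sensor that was lower was Cebpa, a hepatocyte transcription factor, with -0.72 (SE 0.24, adjusted p = 0.0390) and -0.21 with slide as a fixed block. For the interaction 1 sensor was positive and 0 were negative past the threshold, beside 1.94% and 18.9% of all genes. That sensor was the glucocorticoid receptor gene Nr3c1, with an interaction of 0.78 (adjusted p = 0.0337). The median sensor difference was -0.12 on LC30, -0.23 on AC30 and -0.15 on LC10, against 0.05, 0.07 and 0.05 for all genes. PXR (Nr1i2) differed by -0.28 on LC30 and -0.26 on AC30, and neither passed.

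Of 27 measured carriers and accessory genes outside the 5 families, 3 were higher and 1 lower on AC30, 2 higher and 0 lower on LC10, and 1 higher and 0 lower on LC30. Among all genes 18.4% were higher and 2.48% lower on AC30, 18% and 0.595% on LC10, and 1.72% and 0.0376% on LC30. For the interaction 1 of the 27 was positive and 3 were negative past the threshold, beside 1.94% and 18.9% of all genes. The genes named next are single calls, and the list is not read as enriched. Slc28a1, a nucleoside uptake carrier, was higher on all 3 diets, by 1.11 on LC30 (adjusted p = 0.0468), 1.46 on AC30 (adjusted p = 0.00178) and 1.48 on LC10 (adjusted p = 0.00147). With slide as a fixed block its difference was 0.04 on LC30, 0.30 on AC30 and 0.68 on LC10, and none passed. The bile acid carrier Slc10a2 was higher on AC30 by 1.16 and on LC10 by 0.96, and the cation exporter Slc47a1 (MATE1) was higher on AC30 by 1.12 (adjusted p = 0.0267) and by 0.01 with the block. Pdzk1, a scaffold that holds several of these transporters at the membrane, was lower on AC30 by 0.61 on the log2 scale (difference -0.61, SE 0.14, adjusted p = 0.00412) and its interaction was 0.76 (adjusted p = 0.00908). The fixed slide block gave Pdzk1 a difference of -0.27 on AC30, where no gene passed in that fit, and an interaction of 0.60.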

How the data were processed

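Per the file headers, spots were read with Agilent Feature Extraction 10.7.3.1. The deposited processed signal is a spot intensity after background subtraction and detrending, without scaling between arrays, and the deposited mean and background signals are intensities too. The authors' series table holds a score with the same median and interquartile range on every array, made by steps not given in the sources used here. It followed the background-subtracted signal (lowest Spearman correlation 0.996) and was put back on a log2 scale with an interquartile range of 662 and a median of 80.4. Other deposited columns used were spot marks.

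Marked spots (0.652%) were dropped, and log2 processed signal less each array's 75th percentile was averaged per probe. Probes well above background on 6 or more arrays were kept, and the brightest kept probe stood for its gene. The model (limma 3.58.1, R 4.3.3) had a mean per diet over all 24 arrays, with two-sided tests and Benjamini-Hochberg adjustment over 18641 genes in each of 6 comparisons at 0.05. The fit was tested on simulated data. The p-values measure the spread between these rats, whose litters the labels do not give. Same-numbered rats of different diets did not deviate together (correlations from -0.29 to 0.36), so numbers do not pair rats. Named in each comparison were the 10 largest differences among members past the threshold, or the 3 smallest p where none passed, plus 16 fixed liver transporters of which 14 were tested. Differences of other members are given to account for them, and 2 tested members that enter all counts are not reported here by name. Members and lists were chosen with earlier results of these data known. Promoter windows from RefSeq were found for 34 of the 43 tested members. Alternatives changed background correction, scaling, filter, probe choice, block and rats. Drawings used matplotlib 3.10.9.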

Additional observations from a re-analysis of the deposited data

Results flagged for a closer look

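In 4 of 72 groups of 6 rats examined, 1 rat lay far from the other 5, and chance gives about 1 in 20 such groups. Rat 5 of AC30 had an Abcc1 level of -1.66, with the next at -2.18. Rat 2 of LC10 had a Slco1a5 level of -3.46, with the next at -2.66. Rat 2 of AC30 had a Slco2a1 level of -0.25, with the next at -0.77. Rat 6 of LC10 had a Slco6d1 level of -7.13, with the next at -5.31.

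For 4 members given here the copper difference at 30% sucrose differed from that at 10% sucrose by limma's interaction test over all genes. The interaction was 0.78 for Slco1a5, 0.91 for Slc22a8, -0.70 for Abcc1 and -1.75 for Slco6d1, and with slide as a fixed block it passed for none of them. The value of Slco6d1 is a fit against control rats that were all below background.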

How the results depend on the processing

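Counts of members called depended on the setting. On LC30 the count was 0, but 1 with a replicate block, 2 when only those diets were fitted, and 0 to 1 when each rat was left out in turn. On AC30 it was 6, but 3 with normexp background correction, 10 without a filter on dim probes, 2 with slide as a random block and 0 with slide as a fixed block, and 4 to 8 when each rat was left out. On LC10 it was 2, but 0 with normexp, 0 with probes above background on all arrays, 0 with the fixed block, 1 with the random block and 1 without both deviating rats, a choice made after seeing the data. Leaving out each rat gave 1 to 6 there, with 6 without rat 6 of LC10. For the interaction it was 6, but 3 with quantile normalization, 3 in the authors' table, 0 with the fixed block, 1 with the random block and 2 without both rats, and 3 to 7 when each rat was left out, with 3 without rat 5 of AC30. Low minus adequate copper at 30% sucrose and 30% minus 10% sucrose at low copper stayed at 0 when each rat was left out.

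Of 97 pairs of named gene and comparison, 14 were called. Called pairs that held numbered 7 with normexp, 7 with quantile normalization, 6 in the authors' table, 13 without the filter, 4 with the random block, 12 with the replicate block, 14 with the mean of the kept probes, 8 without both rats and 0 with the fixed block. The replicate block rests on numbers that do not pair rats. A difference counts as turned where it was called or exceeded its SE. With the fixed block the sign changed in 25 of the 97 pairs. Of these, 8 counted as turned: Abcb1b 0.32 and Abcc2 -0.22 for sucrose at low copper, Abcc2 -0.32 for the interaction and -0.059 for copper at 30% sucrose, Abcc6 0.019 on AC30, and on LC30 Slc22a13 -1.39, Slc22a5 0.014 and Slco6d1 -0.10. The fixed block leaves 2 rats on 1 side of each within-slide copper comparison, and dim probes such as Slco6d1 are limited by signal over background.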
